A study of Mus musculus with 12 samples.

Results

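Histone H3 acetylated at lysine 9 (H3K9ac) was mapped by chromatin immunoprecipitation and sequencing in adult mouse liver, and 815 distal acetylated regions shared by 6 libraries are described here. The peaks of the 6 lists, 1 list per library, were merged wherever they overlapped by at least 1 bp, which gave 27334 merged regions. A merged region was kept when every list had a peak in it and when its nearest edge lay more than 5 kb from the start of every transcript of a protein-coding gene (GENCODE M21, build mm10/GRCm38). Of all merged regions, 6914 had a peak in every list, and 815 of these passed the distance. The regions were numbered DR1 to DR815 in chromosome order. The regions were chosen by the presence of a peak in each list and by distance, so neither is a finding about them.

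Livers of C57BL/6J mice (B6) gave the libraries B6 1 and B6 2, livers of MSM/Ms mice (MSM) gave MSM 1 and MSM 2, and reciprocal crosses of these strains gave the rest. F1 BM had a B6 mother and an MSM father, and F1 MB had an MSM mother and a B6 father. Each cross was represented by 1 library, so F1 values have no replicate error. The reference genome is that of B6, while MSM was bred from wild mice caught in Japan. All livers were adult, no treatment is given in the labels, and whole liver was used, so each list mixes the cell types of the organ.

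H3K9ac is placed by acetyltransferases that act with transcription factors and the transcription machinery, and it marks active promoters and active enhancers. Enhancers are regulatory sequences away from gene starts at which transcription factors gather, often in introns or between genes, and they commonly occur in groups around genes that define a cell type. In hepatocytes, the main cell of the liver, factors of the HNF4, FOXA, C/EBP and PAR bZIP families bind such sequences. The mark alone does not separate an enhancer from the start of a transcript that is missing from the protein-coding annotation. The regions are therefore called distal regions, and their distance to starts of other gene types is given below.

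Sequences at the summit of 7 distal regions are printed to show the range of base composition among them. The summit of a region was the median over the 6 libraries of the summit of the strongest peak, and 300 bp of GRCm38 around it was read on the plus strand. DR506, DR77, DR312 and DR401 were among the 10 regions with the highest fold enrichment relative to their lists. DR213, DR12 and DR93 were nearest to the hepatocyte genes Alb, Cps1 and Hnf4a and were chosen after the values were seen. Capitals mark matches to any of 6 motifs of liver transcription factors, which are spelled out with the motif results.
DR506 (chr11:79746924-79747223, intergenic): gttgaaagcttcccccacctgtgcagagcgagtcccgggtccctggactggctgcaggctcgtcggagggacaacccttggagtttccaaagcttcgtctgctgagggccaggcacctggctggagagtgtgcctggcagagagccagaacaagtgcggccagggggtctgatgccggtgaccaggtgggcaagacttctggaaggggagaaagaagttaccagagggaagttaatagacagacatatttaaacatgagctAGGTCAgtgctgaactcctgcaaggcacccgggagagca
DR77 (chr2:94178458-94178757, in the long non-coding gene Mir670hg, partly exonic): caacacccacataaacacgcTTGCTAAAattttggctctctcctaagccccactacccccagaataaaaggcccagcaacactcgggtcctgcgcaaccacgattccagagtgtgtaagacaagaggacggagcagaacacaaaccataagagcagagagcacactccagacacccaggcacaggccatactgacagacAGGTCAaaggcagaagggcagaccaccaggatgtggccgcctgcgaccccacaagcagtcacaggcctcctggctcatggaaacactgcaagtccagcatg
DR312 (chr7:73557699-73557998, in the non-coding gene 1810026B05Rik, partly exonic): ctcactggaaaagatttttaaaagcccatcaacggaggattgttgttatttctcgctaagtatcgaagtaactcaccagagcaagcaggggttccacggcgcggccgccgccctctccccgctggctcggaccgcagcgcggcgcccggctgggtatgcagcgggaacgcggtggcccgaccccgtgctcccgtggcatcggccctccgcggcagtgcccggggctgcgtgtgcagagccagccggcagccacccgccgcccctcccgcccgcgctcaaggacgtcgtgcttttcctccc
DR401 (chr9:35128305-35128604, intron of Dcps, nearest start St3gal4): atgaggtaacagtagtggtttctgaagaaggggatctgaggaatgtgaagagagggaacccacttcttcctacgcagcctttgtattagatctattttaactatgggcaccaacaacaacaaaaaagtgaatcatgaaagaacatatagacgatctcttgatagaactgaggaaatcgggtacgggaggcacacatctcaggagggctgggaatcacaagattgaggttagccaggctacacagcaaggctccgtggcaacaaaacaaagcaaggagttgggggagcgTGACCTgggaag
DR213 (chr5:90449197-90449496, intergenic, nearest gene Alb): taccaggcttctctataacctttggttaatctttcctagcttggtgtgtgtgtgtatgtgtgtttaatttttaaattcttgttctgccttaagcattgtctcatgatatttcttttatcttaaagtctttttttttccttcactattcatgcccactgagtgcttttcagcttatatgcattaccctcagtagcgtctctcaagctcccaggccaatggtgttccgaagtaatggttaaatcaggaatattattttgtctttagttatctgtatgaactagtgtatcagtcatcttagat
DR12 (chr1:67117394-67117693, intergenic, nearest gene Cps1): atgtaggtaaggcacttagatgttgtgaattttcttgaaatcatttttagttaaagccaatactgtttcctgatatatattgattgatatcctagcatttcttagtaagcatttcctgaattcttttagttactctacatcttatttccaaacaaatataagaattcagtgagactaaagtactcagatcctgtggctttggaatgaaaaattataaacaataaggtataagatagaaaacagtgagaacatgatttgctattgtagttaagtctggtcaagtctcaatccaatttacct
DR93 (chr2:163538016-163538315, intron of Hnf4a): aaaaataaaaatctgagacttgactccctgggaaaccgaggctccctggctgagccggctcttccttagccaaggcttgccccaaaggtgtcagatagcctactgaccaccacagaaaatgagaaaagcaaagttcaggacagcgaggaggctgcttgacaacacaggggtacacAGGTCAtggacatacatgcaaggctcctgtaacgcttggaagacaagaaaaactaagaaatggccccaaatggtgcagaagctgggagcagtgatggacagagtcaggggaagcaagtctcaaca
The window of DR312 was rich in CpG, with an observed over expected CpG ratio of 1.01 and a GC content of 67.3%. The window of DR12 held no CpG and had a GC content of 30.3%. DR506, DR77, DR401 and DR93 held 1, 2, 1 and 1 motif matches, and DR312, DR213 and DR12 held 0. The windows of DR134, DR89, DR245 and DR746, also among the highest in fold, held 0 and are not printed. Those of DR542, DR104 and DR335, near the hepatocyte genes Apob, Pck1 and Cyp2e1, also held 0 and are not printed.

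The list of B6 1 held 22968 peaks, B6 2 held 11619, MSM 1 held 17310, MSM 2 held 17584, F1 BM held 20173 and F1 MB held 13235. The lists carry no read counts, so sequencing depth was not used, and a missing peak cannot be told apart from a weak one. B6 2, the shortest list, decided membership most often: without it 1204 distal regions were shared by the other lists. Peaks over 5 kb from a protein-coding start made up 15.3% of the list of B6 2, 17.1% of F1 MB, 20.9% of MSM 2, 21.4% of MSM 1, 24.0% of B6 1 and 26.3% of F1 BM. The share of merged regions that were distal fell with the number of lists that held them, from 41.8% of regions in 1 list to 28.9% in 4 lists, 22.0% in 5 lists and 11.8% in 6 lists.

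The distal regions had a median width of 999 bp, with an interquartile range of 686 to 1516 bp. The narrowest was 306 bp, and the widest, DR245, was 6082 bp. Of the 815, 105 were wider than 2 kb and 2 were wider than 5 kb, and together they spanned 998 kb. Regions in all 6 lists within 1 kb of a protein-coding start, 5753 in number and called start regions from here on, had a median width of 1130 bp. The 7304 distal regions present in 1 to 5 lists had a median width of 379 bp, but a merged region can widen with every list that adds a peak, so width and number of lists are not independent.

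Covered length, the bp of a region that lie under peaks of a given library, was shortest in the libraries with the shortest lists. Over the 815 regions its median was 880 bp in B6 1, 468 bp in B6 2, 640 bp in MSM 1, 654 bp in MSM 2, 839 bp in F1 BM and 557 bp in F1 MB. At start regions the medians were 1039, 597, 754, 761, 853 and 665 bp in the same sequence, and the libraries ranked in the same order at both kinds of region. B6 1 had the longest cover at 432 distal regions and F1 BM at 251, and B6 2 had the shortest at 392 and F1 MB at 198. The coefficient of variation of covered length over the 6 libraries had a median of 28.2% per region. In 794 regions at least 1 bp lay under peaks of every list, and 21 regions were joined through peaks that had no bp common to all lists. The common stretch had a median of 333 bp, or 38.1% of the width of its region.

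Fold enrichment, the ratio of signal to local background that the peak caller gave for the strongest peak of a region, was moderate at the distal regions. Its median was 7.12 in B6 1, 4.46 in B6 2, 5.80 in MSM 1, 5.97 in MSM 2, 4.85 in F1 BM and 4.78 in F1 MB. At start regions the medians were 9.01, 5.17, 6.62, 6.71, 4.45 and 5.56. In 5 of the libraries the distal median was 0.790 to 0.890 of the start median, and in F1 BM it was 1.09 of it. F1 BM was the only library in which the distal regions had the higher median fold, and with 1 mouse of this cross the difference has no replicate check.

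Because folds of separate lists are not on 1 scale, each fold was also expressed as its percentile within its own list, where 100 is the highest. The median percentile of the distal regions was 71.5 in B6 1, 48.7 in B6 2, 66.0 in MSM 1, 67.2 in MSM 2, 82.7 in F1 BM and 55.2 in F1 MB. At start regions the medians were 84.1, 66.2, 76.3, 76.1, 77.1 and 69.9 in the same sequence. Start regions thus ranked higher in every library except F1 BM, and their highest median was that of B6 1. At 360 of the 815 regions (44.2%) the highest percentile was that of F1 BM. In every list 210 regions ranked above percentile 50, 11 ranked above percentile 90, and 10 ranked at or below percentile 50. These counts are given for the distal regions only, without a share over all shared regions. The lists differed in length, from 11619 peaks in B6 2 to 22968 in B6 1, and the part of list length in these ranks was not tested on its own. With lists trimmed to equal length, which left 566 distal regions, the median percentile still ran from 53.0 in B6 1 to 78.2 in F1 BM. The cause of that spread was not tested.

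**Figure D1:**
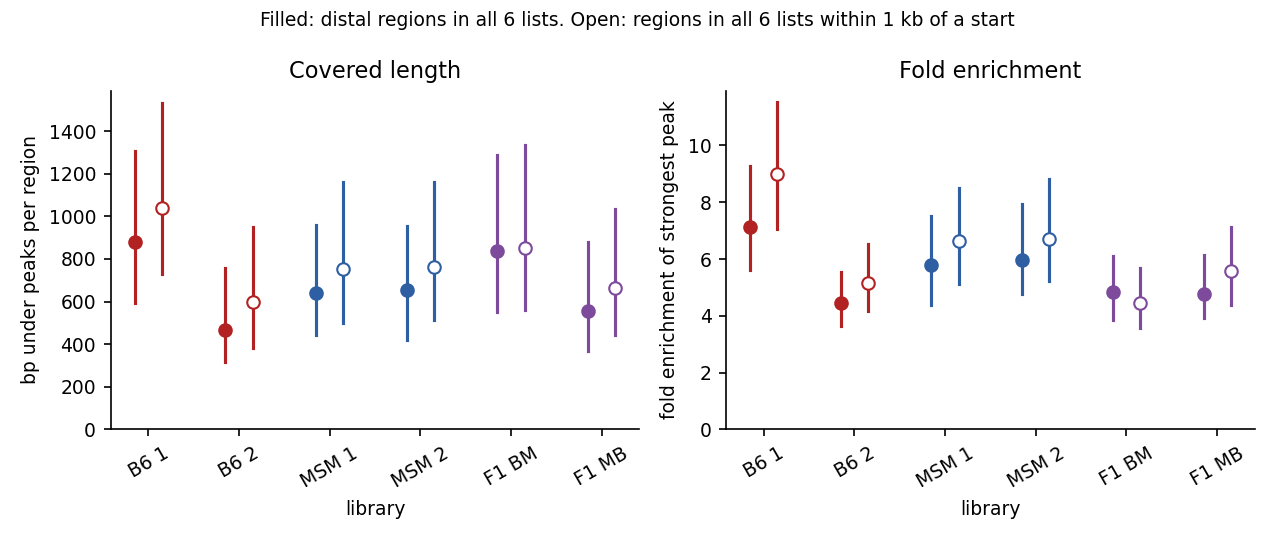
Covered length in bp (left) and fold enrichment (right) per library, with points at the median over regions and bars over the interquartile range, for the 815 distal regions (filled) and the 5753 start regions (open). The filled point lies below the open one in every library except for fold enrichment in F1 BM, where the distal median was 4.85 and the start median 4.45.

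The centre of 351 distal regions lay between genes (43.1%, 95% Wilson interval 39.7 to 46.5%), and that of 263 lay in an intron of a protein-coding gene (32.3%, interval 29.1 to 35.6%). A further 129 centres (15.8%) lay in an intron and 60 (7.36%) in an exon of a gene of another type, such as a long non-coding RNA, and 12 (1.47%) lay in a protein-coding exon. Distal regions in 1 to 5 lists lay in protein-coding introns in 43.3% and in introns or exons of other genes in 9.42% and 2.81%. Of genome positions over 5 kb from a protein-coding start, sampled every 1 kb, 32.9% were in protein-coding introns, 6.75% in introns of other genes, 0.838% in exons of other genes and 57.7% between genes. Intervals cover counting error only, and regions that neighbour each other are not independent draws. Of the 275 regions inside a protein-coding gene, 244 were nearest to a start of that gene and 31 to a start of another gene.

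**Figure D2:**
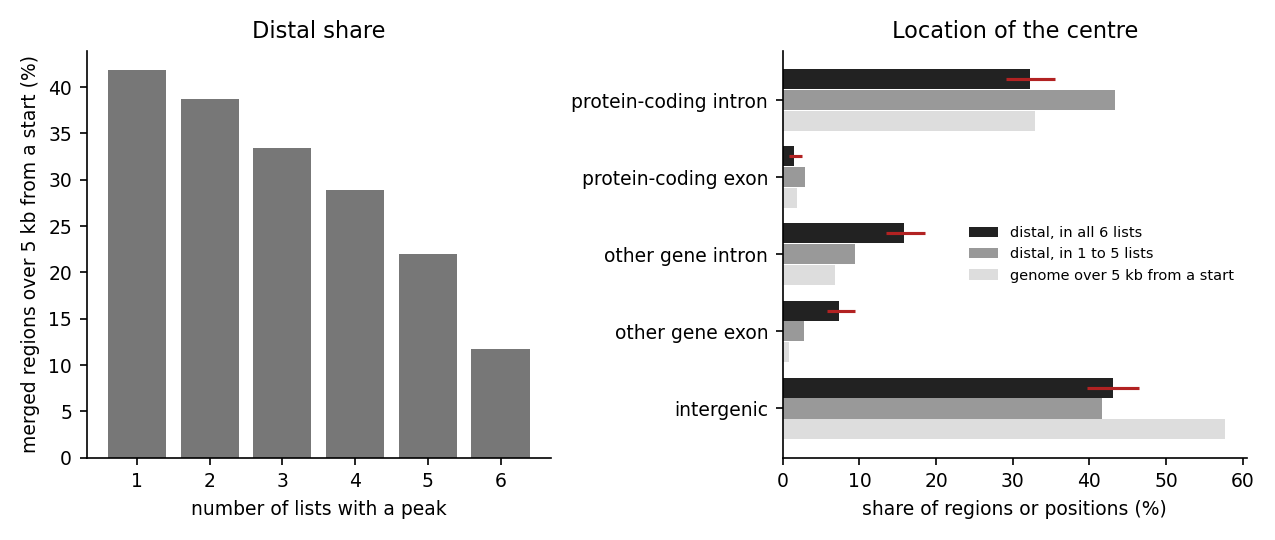
Share of merged regions over 5 kb from a protein-coding start by the number of lists with a peak (left, in percent), and location of region centres in percent (right) for the 815 distal regions with 95% Wilson intervals, for 7304 distal regions in 1 to 5 lists and for genome positions over 5 kb from a start. The distal share was 41.8% in 1 list and 11.8% in 6 lists, and exons of other genes held 7.36% of the 815 centres against 0.838% of genome positions.

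The distance from the centre of a region to the nearest protein-coding start had a median of 24238 bp. The centre was within 10 kb of a start for 169 regions (20.7%), within 50 kb for 602 (73.9%) and within 100 kb for 735 (90.2%). The farthest, DR579 near Flrt2, was 1763241 bp away. Relative to the 5′ end of the nearest gene, 362 regions lay upstream and 453 downstream. The regions just inside the 5 kb limit were DR648 near Wbp4 (edge at 5020 bp), DR680 near Tob2 (5023 bp), DR484 near Mettl7b (5106 bp), DR12 near Cps1 and DR86 near Ahcy (both 5132 bp). The regions just outside it included those near Retreg1 (4941 bp), Atg2a (4928 bp), Dazap1 (4915 bp) and Mlf2 (4902 bp).

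Many distal regions sat at starts of genes that are not protein-coding. A start of such a gene lay within 1 kb of 214 regions (26.3%, interval 23.4 to 29.4%), and inside 157 of them. The same held for 9.71% of distal regions in fewer lists and for 3.47% of 1 kb windows of the genome over 5 kb from a protein-coding start. By type, 90 were nearest to a long intergenic non-coding RNA (lincRNA), 28 to a processed transcript and 22 to an unconfirmed transcript (TEC). A further 16 were nearest to an antisense transcript, 14 to a small nuclear RNA, 11 to a transcribed unprocessed pseudogene and 8 to a microRNA gene. The rest were nearest to other types. Regions with such a start had a median width of 1080 bp and regions without one 971 bp. The median CpG observed over expected ratio was 0.464 with such a start and 0.252 without, and the median over regions of the mean fold percentile was 72.0 with and 58.2 without. At starts of other gene types the regions were thus wider, richer in CpG and higher in their lists, as medians without a test.

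Several of these starts belong to well known non-coding RNAs, which were picked after the values were seen. DR245, the widest region, lay over starts of Lncpint, a long non-coding RNA, and its covered length was 5763 bp in B6 1, 3549 bp in B6 2, 5369 bp in MSM 1, 5522 bp in MSM 2, 5627 bp in F1 BM and 5082 bp in F1 MB. B6 2, with the shortest list, stood below the other libraries there. DR774 lay 38 bp from a start of Malat1, an abundant nuclear non-coding RNA, with a covered length between 706 bp in B6 2 and 832 bp in F1 BM. DR249 contained the microRNA gene Mir148a, a microRNA abundant in liver, with a covered length between 951 bp in MSM 2 and 1587 bp in B6 1. DR764 lay 1576 bp from Mir122, the most abundant hepatocyte microRNA, and contained the start of a lincRNA, with a covered length of 3005, 2246, 2192, 2048, 2881 and 2774 bp in B6 1, B6 2, MSM 1, MSM 2, F1 BM and F1 MB. DR505 contained Mir193a, with a covered length of 3830 bp in B6 1 and of 862 to 2123 bp in the other 5 libraries. Cover was nearly the same in every library at Malat1 and spread widely at Mir193a, where B6 1 stood above the rest.

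The 10 regions with the highest mean fold percentile over the lists were high in their lists throughout. DR506 ranked first, with a fold of 19.1 in B6 1, 10.2 in B6 2, 17.7 in MSM 1, 12.2 in MSM 2, 12.1 in F1 BM and 12.7 in F1 MB. It lay between genes, 86411 bp from the nearest start, that of Rab11fip4, which encodes an effector of Rab11 in vesicle traffic. DR134, at the start of the antisense gene 0610031O16Rik and 10629 bp from Adh7, an alcohol dehydrogenase, had folds of 13.6, 11.3, 16.4, 19.2, 9.17 and 11.1. DR77, over the start of Mir670hg and nearest to Hsd17b12, an enzyme of fatty acid elongation, had folds of 20.04, 8.34, 12.2, 13.6, 12.4 and 10.04. Libraries changed order from region to region, and B6 1 had the highest fold at DR506 and DR77 while MSM 2 had it at DR134.

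The other regions of the top 10 were DR89 near Epb41l1, a membrane skeleton protein, DR245 near Mkln1, DR312 near Chd2, a chromatin remodeller, DR746 near Epas1, which encodes the hypoxia factor HIF-2α, DR401 in an intron of Dcps, a scavenger enzyme of the mRNA cap, with its nearest start at St3gal4, a sialyltransferase, DR584 near Dio3, a deiodinase of thyroid hormone, and DR784 in Rcl1, a factor of ribosome assembly. Their mean percentiles lay between 96.6 for DR784 and 97.9 for DR89. The centre of DR584 was 256795 bp from the start of Dio3, and that of DR245 was 180056 bp from the start of Mkln1. A start of a gene that is not protein-coding lay inside 6 of the top 10, namely DR134, DR77, DR89, DR245, DR312 and DR584. After DR245, the widest by mean covered length were DR158 near Ak4, DR776 near Frmd8, DR584 and DR354 near Ppp1r3b, with means of 3837, 3764, 3628 and 3470 bp. Of the 5 widest regions, 4 also held the start of a gene that is not protein-coding, and DR354 lay 976 bp from one.

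Some distal regions lay close to each other. Joined within 10 kb, the 815 regions formed 630 units, of which 503 were single regions, 93 held 2 regions and 34 held 3 or more. In all, 312 regions (38.3%, interval 35.0 to 41.7%) had another within 10 kb, and the 34 larger groups held 126. No such share is given for start regions or for distal regions in fewer lists, so grouping is not read as particular to the 815. Many of these neighbours were pieces of what other settings would call 1 domain: of 185 gaps of at most 10 kb between neighbours, 100 were at most 500 bp and 62 at most 200 bp. With peaks joined across 500 bp, the share with a neighbour within 10 kb was 19.9%. Over all neighbours on a chromosome the median gap was 571173 bp.

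The largest group was 12 regions within introns of Zbtb16 (chr9:48722745-48752759). Zbtb16 encodes PLZF, a zinc finger repressor that responds to glucocorticoids in several tissues. The gene is 182 kb long on the minus strand of chromosome 9 and has a start with a peak in all 6 lists. The centres of the 12 regions lay 83492 to 112737 bp from the nearest start of the gene, and DR425 and DR426 lay in the same gene at 38316 and 34590 bp. DR416 was the widest of the 12, and its covered length was 2370 bp in B6 1, 1637 bp in B6 2, 2195 bp in MSM 1, 2382 bp in MSM 2, 2330 bp in F1 BM and 2400 bp in F1 MB. Cover was nearly full in every library but B6 2.

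**Figure D3:**
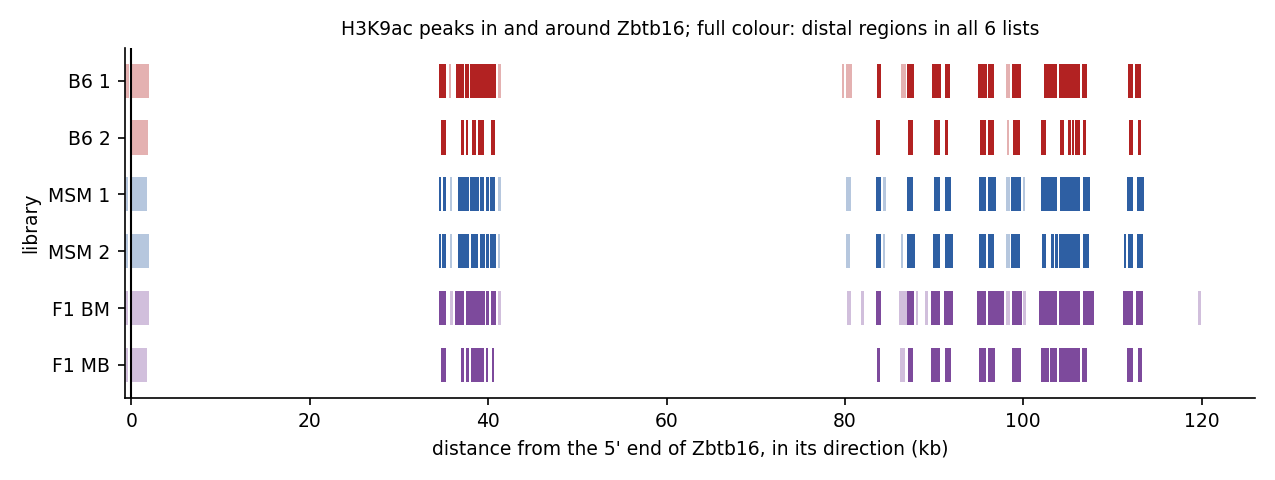
H3K9ac peaks in and around Zbtb16 per library, as bars along the distance from the 5′ end of the gene in its own direction (kb), in full colour where they belong to the 815 distal regions and pale otherwise. The peaks of the group of 12 regions begin 83.46 kb from the 5′ end, and DR425 and DR426 lie closer to the start.

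The next 3 groups held 6 regions each, and the 2 with the longest span are described. The group in Adk, which encodes adenosine kinase, spanned 19.5 kb (chr14:21097023-21116571), and its regions lay 22376 to 39886 bp from a start of the gene. DR626 in that group was covered over 3010 bp in F1 BM and over 369 to 1128 bp in the other 5 libraries. The group in Mtss1, which encodes a protein that links membrane and actin, also spanned 19.5 kb (chr15:58985581-59005092), and 4 more distal regions lay in other introns of Mtss1, 6598 to 22308 bp from a start. Its widest region, DR669, was covered over 1157, 399, 1237, 934, 1664 and 953 bp in B6 1, B6 2, MSM 1, MSM 2, F1 BM and F1 MB. F1 BM was longest at both DR626 and DR669.

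The nearest protein-coding starts belonged to 548 of 21911 gene symbols (2.50%). Of these, 396 genes were nearest to 1 distal region, 94 to 2, 58 to 3 or more and 10 to 5 or more. The 10 were Zbtb16 (14 regions), Mtss1 (10), Wdr5 (8), Klf14 (7), Adk, Chd2 and Irf2bp2 (6 each), and Ppp1r3b, Tomm20 and Lpp (5 each). The nearest start was far away for several of them. The 8 regions assigned to Wdr5, a subunit of histone methyltransferase complexes, lay 12277 to 71497 bp from it, and the 3 regions nearest to Rxra, a nuclear receptor partner, lay further along the same chromosome at 18795 to 51955 bp from Rxra. The 7 regions assigned to Klf14, a transcription factor, lay 153489 to 190407 bp away. Position alone does not tell which gene a region acts on, and the nearest gene is used here only as a label.

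Of the 548 genes, 348 (63.5%, interval 59.4 to 67.4%) had a peak in all 6 lists within 1 kb of a start, against 25.3% of all gene symbols. Put as a share of the other list, 6.27% of the 5550 genes with such a start peak were nearest to a distal region, and 1.22% of the 16361 genes without one. Of 2497 genes that were nearest only to distal regions in fewer lists, 47.1% had a start peak in all 6. Peaks at the start and at distance come from the same libraries, so these shares are descriptions.

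Genes of a short hepatocyte marker list were often the nearest gene, while several other lists of liver genes gave low shares. The lists were chosen with earlier results of these data known. Of 15 hepatocyte marker genes, 7 (46.7%) were nearest to at least 1 distal region, beside 2.50% of all gene symbols. All 15 had a start peak in every list, and of all genes with such a peak 6.27% were nearest to a distal region. Acute phase genes gave 0 of 18, cytochrome P450 genes 1 of 28 and conjugating enzymes 1 of 29, as listed below. The 7 were Cps1 (4 regions), Apob (3), Alb and Hnf4a (2 each) and Cyp2e1, Pck1 and Ttr (1 each). Of the markers of macrophages including Kupffer cells (13 genes), liver endothelium (13), stellate cells (13), bile duct cells (10), lymphocytes (10) and muscle (10), 0 were nearest to a distal region and 0 had a start peak in every list. Of 10 neuron markers 1, Snap25, was the nearest gene of DR84, at 34315 bp, and none had a start peak in every list. DR84 lay 35 bp from the start of another gene that is not protein-coding. Counts of list genes moved with the choice of starts, distance, threshold and libraries. Over the 13 other settings the hepatocyte markers ranged from 5 with a distance of 10 kb to 11 with 2 kb, and all gene symbols from 1.72 to 4.32%. The 6 marker lists at 0 stayed at 0 in each of these settings, and the neuron list was at 0 or 1. A rule that asks for a peak in every list of whole liver favours the most abundant cell.

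The regions near hepatocyte genes differed in strength and in their spread over libraries. Cps1 encodes the enzyme that starts the urea cycle. DR11, the wider of its regions, centred 8253 bp upstream, was covered over 2281 bp in B6 1, 1059 bp in B6 2, 3262 bp in MSM 1, 2913 bp in MSM 2, 3646 bp in F1 BM and 2976 bp in F1 MB. Both MSM libraries exceeded both B6 libraries there. Alb encodes serum albumin. DR213, centred 11943 bp from its start, was covered over 2155, 1191, 2127, 2032, 2252 and 2250 bp in the same order, and DR212 lay 45642 bp from it. At DR213 the other 5 libraries were close to each other and B6 2 stood below them.

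Apob encodes the structural protein of very low density lipoprotein. DR542, 27932 bp from its start, was covered over 2500 bp in B6 1, 1829 bp in B6 2, 1172 bp in MSM 1, 1362 bp in MSM 2, 2413 bp in F1 BM and 1213 bp in F1 MB, and its fold was 12.6, 8.73, 8.60, 10.7, 6.67 and 6.55. At DR542 both B6 libraries were the longer ones, and the region also contained a start of the lincRNA Gm48633. Pck1 encodes the enzyme that commits carbon to gluconeogenesis. DR104, 8109 bp from its start, was covered over 3307, 711, 2969, 2438, 3690 and 3330 bp. B6 2 stood far below the other libraries, so the strains overlapped at Pck1.

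Transcription factors of the hepatocyte were nearest to a distal region in 10 of 28 cases (35.7%), with 15 regions in all, and 27 of the 28 had a start peak in every list. They included Nfia, Cebpa, Hnf4a, Foxa1, Klf15, Nfib, Nr5a2, Onecut1 and Zbtb20. The count ranged from 6 with a distance of 10 kb to 13 with 1 start per gene and without B6 2. DR561, 6992 bp from Foxa1, a factor that opens chromatin, had folds of 11.6 in B6 1, 6.85 in B6 2, 11.6 in MSM 1, 15.0 in MSM 2, 6.51 in F1 BM and 9.64 in F1 MB. DR93, in an intron of Hnf4a, a master regulator of hepatocyte genes, had folds of 8.28, 4.16, 7.62, 8.68, 8.65 and 4.76, lower than DR561 in every library but F1 BM. DR298, 9974 bp from Cebpa, had folds of 5.61, 3.79, 3.99, 3.32, 3.29 and 3.86. DR298 was weaker than DR561 and DR93 in every library.

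Genes of gluconeogenesis, glucose sensing and glycogen were nearest in 10 of 24 cases (41.7%), with 19 regions. Ppp1r3b, which targets a phosphatase to glycogen, had 5 regions, and Irs2, which relays the insulin signal, had 4 regions 108285 to 154107 bp away. Pcx and Slc2a2, which encode pyruvate carboxylase and the glucose transporter GLUT2, had 2 intronic regions each. Fbp1, Foxo1, Insr, Pck1, Ppargc1a and Ppp1r3c had 1 each, at 332571 bp for Foxo1 and 264980 bp for Ppargc1a. Of the 10 genes, 7 had a region within 50 kb, and the count ranged from 6 with lists trimmed to equal length to 12 with a distance of 2 kb.

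In the growth hormone and IGF axis 5 of 17 genes (29.4%) were nearest, namely Bcl6, Egfr, Ghr, Igfbp2 and Mup3. Of these, 3 had a region within 50 kb, while that of Igfbp2 lay 51626 bp away and the 2 of Bcl6 at 68116 and 114311 bp. The count fell to 1 with lists trimmed to equal length, where all gene symbols gave 1.85%, and to 2 at a −log10 q of at least 5, and it reached 7 with 1 start per gene and without B6 2. Of metabolic nuclear receptors 6 of 28 (21.4%) were nearest, with 3 regions in introns of Nr1i2, the xenobiotic receptor PXR, 3 at Rxra and 1 each at Nr1d1, Ppara, Rora and Thrb. The regions of Ppara, Rora and Thrb lay 63426, 84710 and 124203 bp away, which left 3 genes with a region within 50 kb. The count ranged from 5 to 11, the latter with 1 start per gene. DR689, the region nearest to Ppara, ranked high, with a mean percentile of 96.3.

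Other lists gave lower shares. For the urea cycle and amino acid breakdown 5 of 37 genes (13.5%) were nearest, Cps1, Ahcy, Slc25a13 and Hpd among them. Complement (3 of 20), the circadian clock (3 of 21), bile acid synthesis and transport (2 of 17), apolipoproteins and lipid transport (3 of 27) and fatty acid and cholesterol synthesis (3 of 28) gave between 10.7 and 15%. Plasma carriers (2 of 25), coagulation (2 of 25) and fatty acid oxidation and ketogenesis (2 of 27) gave 7.41 to 8%. Cytochrome P450 genes (1 of 28, Cyp2e1) and conjugating enzymes (1 of 29, Nnmt) gave 3.57 and 3.45%, beside the 2.50% of all genes. Of 18 acute phase genes and of 35 ribosomal protein genes 0 were nearest, although 10 and 24 of them had a start peak in every list. The counts of these lists also moved with the setting. The urea cycle list ranged from 3 with starts of all gene types to 10 with a distance of 2 kb, and plasma carriers from 2 to 7, again with 2 kb. Conjugating enzymes reached 4 with 2 kb, where all gene symbols gave 3.19%. Cytochrome P450 genes ranged from 0 to 3, with 3 both for 1 start per gene and without B6 2, where all gene symbols gave 4.32 and 3.40%. Fatty acid and cholesterol synthesis ranged from 2 to 6, apolipoproteins from 2 to 5, coagulation from 1 to 4, the circadian clock from 2 to 4, complement, bile acid synthesis and fatty acid oxidation each from 1 to 3, and acute phase and ribosomal protein genes from 0 to 1.

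**Figure D4:**
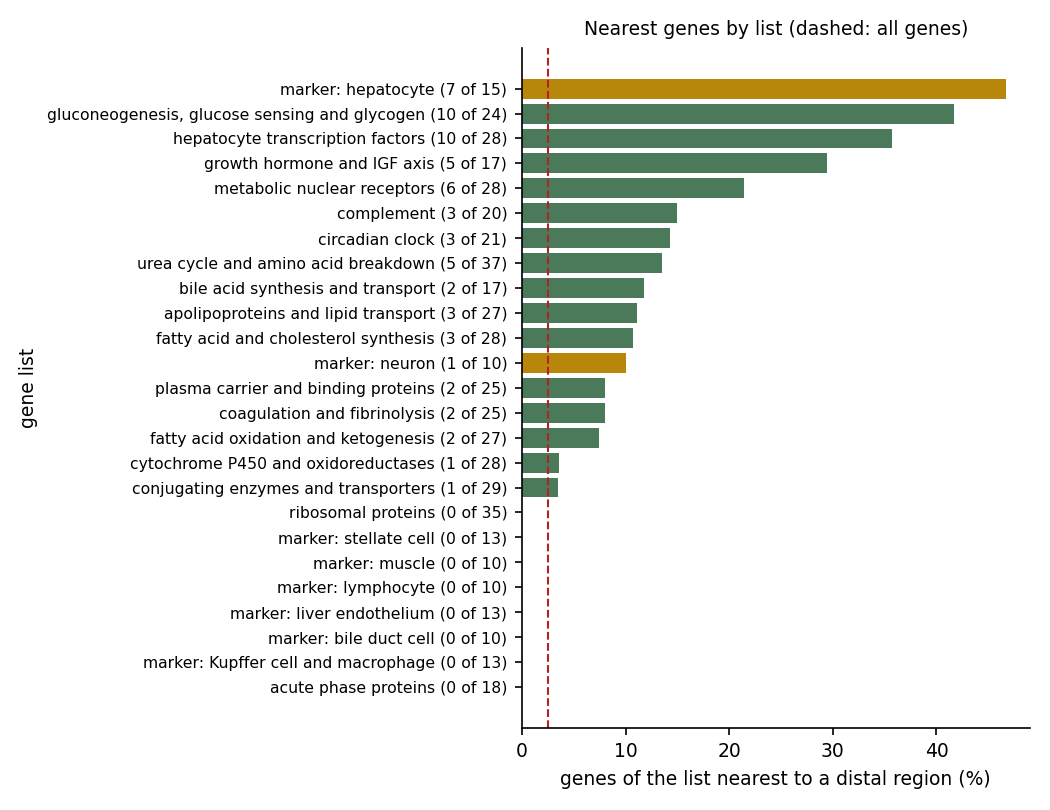
Share of genes in each list, in percent, that are the nearest protein-coding gene of at least 1 of the 815 distal regions, with counts beside the list names, marker lists in gold and the 2.50% of all gene symbols as a dashed line. Hepatocyte markers reach 46.7%, and the macrophage, endothelium, stellate, bile duct, lymphocyte and muscle markers are at 0. Acute phase and ribosomal protein genes are also at 0.

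Base composition at the summit lay between that of start regions and that of distal regions in fewer lists. The CpG observed over expected ratio in 300 bp had a median of 0.277 at the 815 regions, 0.716 at start regions, 0.238 at distal regions in 1 to 5 lists and 0.441 over all merged regions. The GC content had a median of 49.7% at the distal regions and 60.7% at start regions. A ratio of at least 0.6 was found in 138 distal regions (16.9%) and in 65.3% of start regions. Of the 138, 84 (60.9%) lay within 1 kb of a start of a gene that is not protein-coding, and of the other 677 regions 130 (19.2%) did. CpG-rich distal regions thus coincided often with annotated non-coding starts.

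Motifs were searched in the same 300 bp windows on both strands, with any base at N, and matches of different motifs were allowed to overlap. The 6 motifs of liver factors were AAAGTCCA (HNF4 type), AGGTCA (a nuclear receptor site), TNTTTAC (forkhead type), TTGCNNAA (C/EBP type), GTTAATNAT (HNF1 type) and TTATGNAA (D box of PAR bZIP factors). At least 1 of the 6 was present in 42.6% of the distal regions (interval 39.2 to 46.0%), 44.0% of distal regions in fewer lists, 27.1% of start regions, 35.2% of all merged regions and 36.4% of 300 bp RefSeq promoter windows (GRCm38.p6). In 1220 windows placed 10 kb to either side of the distal regions, outside all merged regions, the share was 43.2%. The share of the flanks lay within the interval of the distal regions.

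AGGTCA was in 17.5% of the distal regions, 17.95% of the flanking windows, 13.02% of start regions, 15.5% of all merged regions and 16.3% of promoter windows. TNTTTAC was in 12.9%, 17.1%, 7.93%, 12.04% and 12.4%, and TTGCNNAA in 13.5%, 10.1%, 7.09%, 10.02% and 10.8%, in that order. The forkhead letters were thus less frequent in the distal regions than beside them and the C/EBP letters more frequent. TTATGNAA was in 4.91% of the distal regions and 5.25% of the flanks, AAAGTCCA in 1.23% and 1.72%, and GTTAATNAT in 0.491% and 0.574%. In all merged regions these shares were 3.10%, 1.07% and 0.574%, and in promoter windows 3.38%, 1.25% and 0.801%.

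Of 6 other motifs, the GC box GGGCGG stood out, with 13.9% of the distal regions, 2.95% of the flanks, 7.34% of distal regions in fewer lists, 38.5% of start regions, 23.8% of all merged regions and 35.7% of promoter windows. The ETS type CCGGAAG was in 2.70% of the distal regions, 1.48% of the flanks, 4.72% of all merged regions and 8.86% of promoter windows. A piece of the CTCF motif, CCACNAGNG, was in 3.93%, 2.54%, 4.26% and 4.10%. TGANTCA (AP-1 type) was in 8.22%, 8.85%, 6.47% and 7.81%, CACGTG (E box) in 3.19%, 3.85%, 4.35% and 7.15%, and GCGCNTGCG (NRF1 type) in 0.491%, 0.246%, 1.88% and 6.31%. A match says only that the letters are there, and the peak summit of a histone mark need not lie where a factor binds. Shares of motif letters can depend on base composition, which was not adjusted for at any motif.

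**Figure D5:**
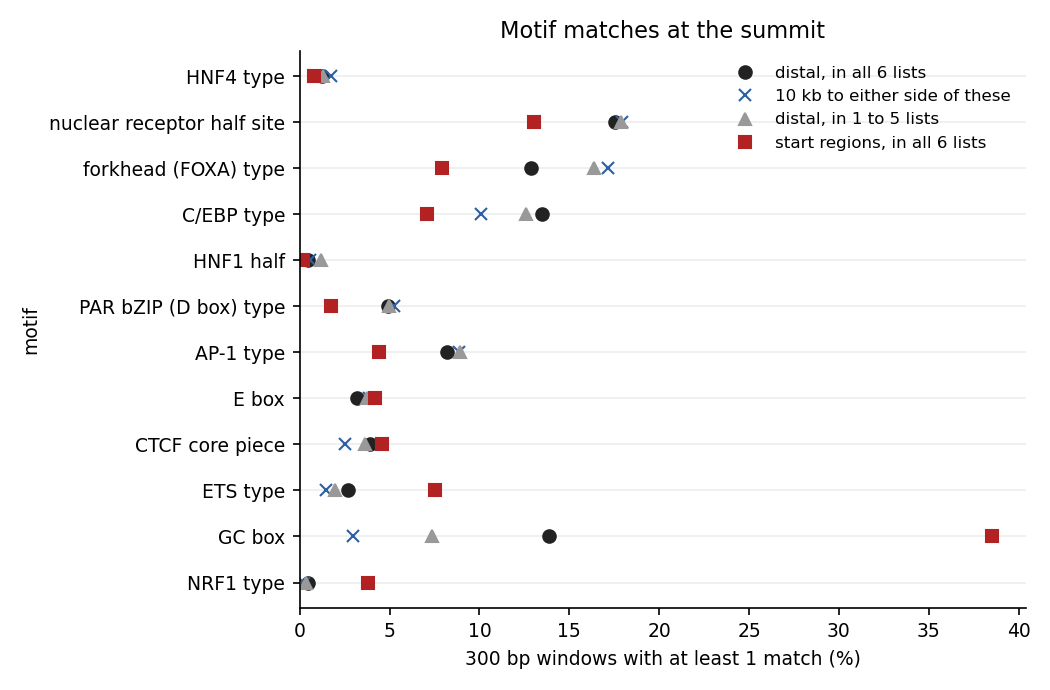
Share of 300 bp windows with at least 1 motif match, in percent, at the summits of the 815 distal regions, in windows 10 kb to either side, at distal regions in 1 to 5 lists and at start regions. The GC box separates the sets most, from 2.95% in the flanks to 38.5% at start regions, while the forkhead letters are less frequent at the distal regions (12.9%) than in the flanks (17.1%) and the C/EBP letters more frequent (13.5% and 10.1%).

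Strains were compared over the 4 parental libraries. For B6 the median covered length of the distal regions was 674 ± 291 bp, and for MSM it was 647 ± 9.90 bp (mean ± SD, n = 2 libraries each), a difference of -27 bp for MSM minus B6 against a pooled SD of 206 bp (two-sided exact permutation test, p = 1). The median fold percentile was 60.1 ± 16.1 in B6 and 66.6 ± 0.801 in MSM, a difference of 6.51 against a pooled SD of 11.4 (exact permutation test, p = 1). The B6 libraries lay on either side of both MSM libraries in both measures, so the strains overlapped. With lists trimmed to the length of the shortest, which left 566 distal regions, the median percentile was 53.0 in B6 1, 56.3 in B6 2, 62.7 in MSM 1 and 65.5 in MSM 2. The strains did not overlap there, with a difference of 9.40 (exact permutation test, p = 0.333, the smallest that 2 libraries against 2 can give). As a share of the covered length of all regions in all 6 lists, the distal regions took 10.2% in B6 1, 9.71% in B6 2, 10.4% in MSM 1, 10.3% in MSM 2, 11.2% in F1 BM and 10.4% in F1 MB. On this scale both MSM libraries were above both B6 libraries, by 0.392 percentage points in the mean, and the exact permutation test again gave p = 0.333.

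Single distal regions whose covered length did not overlap between strains were counted beside the same count over all 6914 regions in all lists. At 151 of the 815 (18.5%) both B6 libraries exceeded both MSM libraries, beside 17.3% of all. At 96 (11.8%) both MSM libraries exceeded both B6 libraries, beside 6.70% of all and 6.02% of the regions within 5 kb of a start. By fold percentile, both B6 libraries were above both MSM libraries at 121 (14.8%, beside 17.3% of all) and both MSM libraries above both B6 libraries at 179 (22.0%, beside 15.7% of all). The shares of regions higher in B6 were close to those of all regions or below, and those higher in MSM were above, in a comparison of 2 libraries with 2. The counts changed with the B6 library that was left out, where 1 library then stands for B6. Without B6 2, 979 of 1204 distal regions were separated by covered length. Of the 1204, 778 (64.6%) were longer in B6, beside 77.1% of all 8520 shared regions, and 201 (16.7%) were longer in MSM, beside 8.51%. Without B6 1, 691 of 841 were separated, 162 (19.3%) longer in B6, beside 18.1% of all 7123 shared regions, and 529 (62.9%) longer in MSM, beside 61.4%. The larger share longer in MSM than over all regions was thus wide without B6 2 and small without B6 1. Among groups of regions within 10 kb, 17 held at least 2 separated regions, and these were all longer in B6 in 7 groups, all longer in MSM in 5 and mixed in 5. No such count over groups of all shared regions is given, so these numbers are not read as joint strain differences.

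The widest gaps in favour of B6 were on chromosomes 10 and 4. DR470, 46240 bp from Gm33543 (chr10:95778298-95781299), was covered over 2944 bp in B6 1, 2569 bp in B6 2, 565 bp in MSM 1, 1222 bp in MSM 2, 2854 bp in F1 BM and 1947 bp in F1 MB. It contained a start of the lincRNA 4732465J04Rik. DR469, 8365 bp from Anapc15-ps (chr10:95680631-95683000), was covered over 2370, 1898, 889, 418, 1989 and 1645 bp. These regions neighbour each other on chromosome 10, and at both the F1 livers lay above both MSM livers. DR169, 30913 bp from Ahdc1 (chr4:133096232-133098091), was covered over 1860, 1222, 263, 261, 1345 and 876 bp, with folds of 16.3 and 7.06 in B6 and 2.60 and 3.83 in MSM. The shorter B6 library exceeded the longer MSM library by 1347, 1009 and 959 bp at DR470, DR469 and DR169.

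The widest gaps in favour of MSM were on chromosomes 8, 5 and 6. DR354, 36303 bp from Ppp1r3b and 976 bp from the lincRNA Gm45301 (chr8:35410482-35415444), was covered over 2240 bp in B6 1, 366 bp in B6 2, 4786 bp in MSM 1, 4699 bp in MSM 2, 4940 bp in F1 BM and 3789 bp in F1 MB. DR265, in an intron of Aldh1l1, an enzyme of folate metabolism (chr6:90540100-90542935), was covered over 1659, 1119, 2830, 2775, 2829 and 2524 bp, and its fold was 10.1 and 4.08 in B6 and 15.2 and 16.7 in MSM. At both regions each F1 liver lay above both B6 livers. DR227, 51543 bp from Cyp3a41b in the Cyp3a family of drug-metabolising enzymes and 1378 bp from the pseudogene Cyp3a63-ps (chr5:145635371-145637175), was covered over 301, 225, 1710, 1706, 1789 and 1288 bp. No bp of DR227 lay under peaks of all 6 lists, and the Cyp3a genes are near-identical copies among which reads can be misplaced. MSM reads were mapped to a B6 genome, and the part of mapping in these differences was not tested.

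In the F1 livers the 2 crosses differed in the same way in both sets of separated regions. At the 151 regions longer in B6, F1 BM was above both MSM libraries at 144 (95.4%) and F1 MB at 75 (49.7%), beside 82.7% and 47.5% of the 1199 such regions among all shared ones and 65.6% and 23.9% of all 815 distal regions. At the 96 regions longer in MSM, F1 BM was above both B6 libraries at 87 (90.6%) and F1 MB at 39 (40.6%), beside 76.0% and 29.8% of the 463 such regions among all shared ones and 39.6% and 9.20% of all 815. These regions were chosen for short cover in the strain that F1 is set against. F1 BM reached at least the shorter library of the longer strain at 119 of 151 and 70 of 96, and F1 MB at 27 and 16. F1 BM thus had long cover whichever strain was longer, and its list, with 20173 peaks, was longer than that of F1 MB, with 13235. With lists trimmed to equal length, which left 566 distal regions, the median covered length was 913.5 bp in F1 BM and 642.5 bp in F1 MB. The cause of the difference was not tested, and with 1 library per cross a cross cannot be told apart from its single liver.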

How the data were processed

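H3K9ac libraries of 6 adult livers were analysed (2 B6, 2 MSM, 1 F1 BM, 1 F1 MB), grouped by their labels. The 6 input samples were not analysed here. The authors cross-linked liver with formaldehyde, pulled down acetylated chromatin and sequenced 50 bp read pairs. Trim Galore, HISAT2, SAMtools and MACS2 are named in the submitters' processing notes with mm10/GRCm38, whereas the methods of the study name Bowtie 2 with a long maximal insert, so the aligner of these lists is uncertain. The threshold of the caller and its control are not given in the sources used here.

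The authors deposited 1 narrowPeak list per library, with no pooling of replicates. In the deposited lists each peak has a fold enrichment (a linear ratio), a −log10 p-value, a −log10 q-value and a score, as the authors' caller wrote them. The lowest −log10 q was 1.30 to 1.35 per list. The score was not used. The lists hold no counts, so depth was not used.

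Merging and all counts were done in Python 3.11.15 (numpy 2.4.6, scipy 1.17.1), and plots in matplotlib 3.10.9. The reference FASTA was GRCm38, the build of the lists. Starts were those of every transcript in GENCODE M21. The nearest gene was that with the start nearest to the centre of a region. Positions are 1-based. Functions were first tested on simulated data. Intervals are 95% Wilson intervals. For strain differences, the 4 parental libraries were reassigned in all 6 ways (exact permutation test, two-sided). Replicates were separate livers per the study, and the groups share replicate numbers only as names.

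The members, the 25 gene lists and the 12 motifs were chosen with earlier results of these data known. Named items were the 10 regions highest in mean fold percentile, the 10 genes nearest to most regions, the 5 widest regions, the 3 largest groups, the 5 regions on each side of 5 kb, the 3 widest strain gaps per direction and list genes that were nearest to a region. The non-coding genes, Snap25 and the sequences at Alb, Cps1 and Hnf4a were added after values were seen. Some items that these rules name are not reported here. Alternatives were other start sets, distances, thresholds, list lengths, overlaps, merging distances and leaving out libraries.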

Additional observations from a re-analysis of the deposited data

How the results depend on the processing

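The number of distal regions shared by 6 lists moved most with the choice of starts. Median width and the share with a neighbour moved most with merging within 500 bp, and the number of separated regions without B6 replicate 2. With 1 start per gene there were 1417 regions nearest to 946 genes, with a median width of 1099 bp, 52.4% in introns, 21.5% near a non-coding start and 399 that separated the strains, and all 815 regions overlapped 1 of them. With starts of all gene types there were 519 regions, 42.4% in introns, 32.8% within 10 kb of another, 0 near a non-coding start by construction and 154 that separated the strains. With 2 kb and 10 kb in place of 5 kb, 38.2% and 28.2% lay in introns. At a −log10 q of at least 5 the median width was 1086 bp, 32.0% had a neighbour and 30.3% were near a non-coding start. With lists trimmed to equal length the width was 1093 bp, 32.5% had a neighbour, and the strain difference in fold percentile was 9.40 with no overlap of the strains (exact permutation test, p = 0.333). Merging within 500 bp gave a width of 1723 bp and 19.9% with a neighbour, and the 4 parental lists alone gave a width of 892 bp. Clustering within 5 kb and 20 kb gave 32.8% and 44.8%. In windows of 1000 bp 89.2% held 1 of the 6 liver motifs. Leaving out 1 parental library at a time gave 841 to 1204 regions, a width of 887 to 971.5 bp, 38.9 to 45.3% with a neighbour, 21.3 to 25.8% near a non-coding start and 404 to 979 separated regions, most of them longer in B6 without B6 replicate 2 (778 against 201) and longer in MSM without B6 replicate 1 (529 against 162). The strain difference in covered length ranged from -169.5 to 166 bp, with its sign reversed without B6 replicate 1, and that in fold percentile from -3.97, reversed without B6 replicate 2, to 17.7. As a share of covered length the difference was 0.392 points, the opposite sign of the main value. The cause of these shifts was not tested beyond the construction of each setting. With the replicate block, the differences were -27 bp and 6.51 points (exact sign test, p = 1 for both), from pairs of -240 and 186 bp and of -5.47 and 18.5 points, and the numbers do not pair the samples. Of 137 values under the 19 alternatives, 101 were close to the main value: strain differences that kept their sign, counts within 1.5 times the main count, and widths and shares within the 95% interval of the main value. Depth was not available to any of these comparisons.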
